A study of Drosophila melanogaster with 2 samples.

Results

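The heat shock genes examined were Hsp22, Hsp23, Hsp26, Hsp27, Hsp67Ba, Hsp67Bb and Hsp67Bc of the cytological region 67B, the Hsp90 gene Hsp83, the heat shock transcription factor gene Hsf and the co-chaperone gene starvin (stv). These 10 genes, of 13945 protein-coding genes in the Ensembl annotation, were taken from a fixed list of names. Hsp67Bb is annotated there as CG4456 (FBgn0001228) and was matched through a synonym, and the other 9 were matched by symbol. For each gene, every summit in the gene body or in the 5 kb before it was collected. Binding was mapped by ChIP-seq with an anti-GFP antibody in whole prepupae of a line that stably expresses CG8216, also named spab, with GFP at its C terminus. There was 1 group, with 2 biological replicates, of males and females pooled, and the labels give their age as 24 days, where hours may be meant. The labels name no heat treatment. Whole animals mix all tissues, both replicates come from the same transgenic line, and what drives the transgene is not stated.

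Small heat shock proteins are chaperones that hold unfolding proteins without using ATP, and they share an alpha-crystallin domain. Their genes in the fly respond to heat through the factor Hsf, which binds heat shock elements, inverted repeats of the word GAA. The same genes are also transcribed in unheated animals around pupariation, when the steroid ecdysone peaks, and GAGA factor, which binds GAGAG words, keeps several of their promoters accessible. Hsp83 encodes Hsp90, an abundant chaperone present without heat, and starvin is a BAG-domain partner of Hsc70 that acts in muscle.

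The sequences under the strongest reproducible summit of Hsp27, Hsp26, Hsp83 and stv follow, because these genes carry the strongest signals of those examined and their sites differ in the words they hold. Each is read 5′ to 3′ on the strand of its gene, on dm6. Capitals mark the heat shock words GAANNTTC and TTCNNGAA and the word GAGAG, on either strand. The Hsp27 sequence is chr3L:9383763-9384062 (forward strand) and ends at the base before the start site, with the summit at base 151. The Hsp26 sequence is chr3L:9377434-9377733 (reverse strand), upstream of the start sites, with the summit at base 150. The Hsp83 sequence is chr3L:3194087-3194386 (forward strand), inside the intron, and the stv sequence is chr3L:13476776-13477075 (forward strand), upstream of the gene. Both have the summit at base 151.
Hsp27: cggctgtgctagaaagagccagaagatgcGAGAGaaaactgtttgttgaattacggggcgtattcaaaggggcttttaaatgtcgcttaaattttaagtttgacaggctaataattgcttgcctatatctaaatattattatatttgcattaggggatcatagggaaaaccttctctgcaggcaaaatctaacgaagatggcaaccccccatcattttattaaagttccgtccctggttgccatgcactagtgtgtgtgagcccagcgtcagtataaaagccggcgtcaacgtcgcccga
Hsp26: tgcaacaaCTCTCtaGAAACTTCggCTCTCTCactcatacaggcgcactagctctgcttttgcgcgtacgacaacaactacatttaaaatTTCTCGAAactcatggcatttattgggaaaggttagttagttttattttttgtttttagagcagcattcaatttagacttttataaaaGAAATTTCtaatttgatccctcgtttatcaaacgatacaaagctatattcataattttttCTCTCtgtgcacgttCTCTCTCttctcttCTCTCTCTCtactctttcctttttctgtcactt
Hsp83: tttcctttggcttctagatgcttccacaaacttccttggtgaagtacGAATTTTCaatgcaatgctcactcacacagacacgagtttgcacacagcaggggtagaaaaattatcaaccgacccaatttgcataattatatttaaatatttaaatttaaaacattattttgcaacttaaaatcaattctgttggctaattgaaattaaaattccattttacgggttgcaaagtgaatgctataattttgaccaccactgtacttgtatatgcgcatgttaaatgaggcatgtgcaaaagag
stv: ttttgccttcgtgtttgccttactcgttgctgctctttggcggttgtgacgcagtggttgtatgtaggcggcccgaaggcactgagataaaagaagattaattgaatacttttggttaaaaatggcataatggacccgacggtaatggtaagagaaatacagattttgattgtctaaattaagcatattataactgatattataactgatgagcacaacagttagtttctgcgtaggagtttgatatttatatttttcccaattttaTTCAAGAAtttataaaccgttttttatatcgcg

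Reproducible binding was found at Hsp27, Hsp26, Hsp22, Hsp83 and stv, and not at the promoters of Hsp23, Hsp67Ba, CG4456, Hsp67Bc and Hsf. Peaks kept at a set irreproducible discovery rate (IDR) form a list of 5944, of which 10 had their summit in the windows of these genes. Listed peaks are called reproducible here, but not all have a summit in both replicate lists. Of the 5944, 62 had no replicate 1 summit within 1000 bp and 9 none in replicate 2. A start site within 500 bp of an IDR summit was taken as a bound promoter, which held for 5 of the 10 genes, where 10.9% of all protein-coding genes had one. An IDR summit in the gene body or the 5 kb upstream was found for 9 of the 10, where the share over all protein-coding genes was 27.3%. The windows of neighbouring 67B genes overlap, so that a summit can count for several genes. Counted for the nearest gene only, a choice made after the values were seen, the 10 summits belonged to 5 genes. By this rule no share over all protein-coding genes was counted, so the 5 cannot be set beside the 27.3%. The windows had a median length of 6884 bp, against 7166 bp over all protein-coding genes. Start sites numbered a median of 1.5 per gene, against 1 over all, and more start sites give more chances of a bound promoter. The genes were chosen with results of these data known, so these counts are descriptions and were not tested.

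Signal here is the value the authors' peak caller gave each peak, in its own units, and read depth is unknown. In the IDR list it ran from 149.5 to 4074 with a median of 278, and 7 of the 10 summits lay above that median. The relaxed lists of replicate 1, of replicate 2 and of both pooled held 30000 peaks each and include background. A replicate was taken to have a summit when its own list held one within 100 bp.

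**Figure D1:**
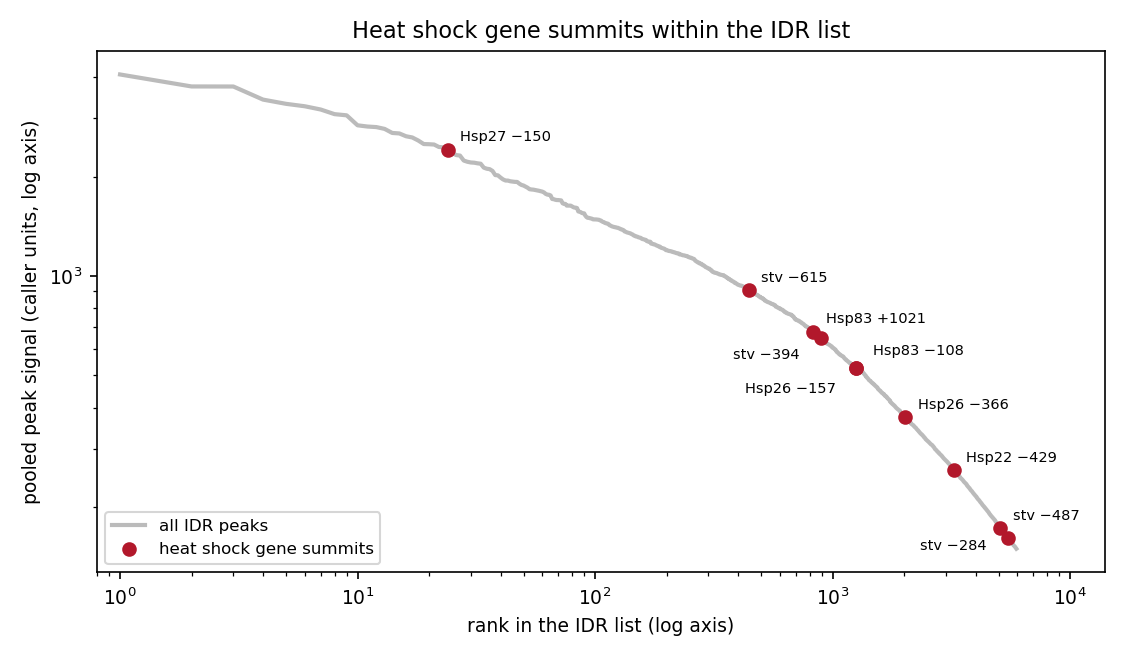
Pooled peak signal (caller units, log axis) against rank in the IDR list (log axis) for all 5944 peaks (grey line) and the 10 summits of the heat shock genes (points), each named by the nearest start site and its distance in bp (minus is upstream). Hsp27 stands at rank 24 and the weakest stv summit at rank 5462.

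Hsp27, which encodes a small heat shock protein found largely in the nucleus, carried the strongest site. Its peak at chr3L:9383679-9384142 had its summit 150 bp upstream of the only annotated start site (FBgn0001226, chr3L:9384063-9385694, forward strand), in intergenic sequence. The signal was 1098 in replicate 1 and 1321 in replicate 2, with 2409 for both pooled. Both replicates placed it near the top of their own lists, at rank 32 in replicate 1 and rank 19 in replicate 2. In the IDR list it ranked 24 of 5944, and among the 1518 protein-coding genes with a bound promoter it had the 13th strongest promoter peak. The summits of the replicates lay 19 and 6 bp from the IDR summit.

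Hsp26, which encodes a cytosolic small heat shock protein, had 2 reproducible summits 209 bp apart upstream of its start sites (FBgn0001225, chr3L:9376418-9377427, reverse strand). The nearer, in the peak chr3L:9377403-9377857, lay 157 bp upstream with a pooled signal of 529 (rank 1258). The farther, in chr3L:9377403-9377866, lay 366 bp upstream with 373 (rank 2019). Replicate 2 had a summit at each, with 354 and 186. Replicate 1 had 205 at the farther one and no summit within 100 bp of the nearer, its closest being 171 bp away. Replicate 1 also had a summit of 111 at 540 bp upstream, which was 58.6 in the pooled list and had no counterpart within 100 bp in replicate 2. The replicates thus shared the region and differed in where the top was placed. The farther IDR summit also lay within 500 bp of a start site of the non-coding RNA gene asRNA:CR43481. By the rule used here that promoter was bound too, and the summit cannot be assigned to Hsp26 alone.

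Hsp22 encodes a small heat shock protein of the mitochondrial matrix, and CG4456 (Hsp67Bb), which encodes a rhodanese-domain protein, shares a dicistronic transcript with it. Hsp22 (FBgn0001223, chr3L:9372931-9374964, forward strand) had a narrow reproducible peak at chr3L:9373502-9373619, with a pooled signal of 259 at rank 3242. Its summit lay 429 bp upstream of the downstream start site of Hsp22, inside the 5′ UTR of the longer Hsp22 transcript and the 3′ UTR of CG4456. Replicate 2 had 156 within 40 bp of it. Replicate 1 had 56.7 at 63 bp and a stronger summit, 104, farther upstream, 499 bp from a start site of both genes. The IDR summit lay 637 bp from the nearest CG4456 start site, outside the promoter window, and 1071 bp upstream of Hsp67Bc, whose product is the fly counterpart of human HspB8.

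The promoters of Hsp23, Hsp67Ba and Hsp67Bc had no IDR summit but carried summits in the relaxed lists, and that of CG4456 had none in the pooled list. At Hsp23 (FBgn0001224, chr3L:9381882-9382765, forward strand), another cytosolic small heat shock gene, a summit 31 bp upstream of the start site had a pooled signal of 116 (rank 7725). Replicate 2 had 74.2 there, and replicate 1 none within 100 bp. A second Hsp23 summit, 174 bp inside the gene in the coding sequence, had a pooled signal of 56.5 and was listed in both, with 43.4 in replicate 1 and 21.5 in replicate 2. At Hsp67Ba (FBgn0001227, chr3L:9377802-9379534, reverse strand) a summit 316 bp upstream had 145.4 (rank 6127), with 78.4 in replicate 1 (rank 5298 of its own list) and 70.9 in replicate 2 (rank 7336). The pooled value stands just under the lowest IDR signal of 149.5, as does 147.2 (rank 6044) at a summit in an exon of asRNA:CR43481, a non-coding RNA annotated on the strand opposite to Hsp67Ba. At Hsp67Bc (FBgn0001229, chr3L:9371511-9372497, reverse strand) a summit in the coding sequence, 355 bp inside the gene, had 55.6, with 20.3 in replicate 1 and 35.3 in replicate 2. In the relaxed pooled list 8 of the 10 genes had a summit within 500 bp of a start site, where 26.7% of all protein-coding genes had one, and 9 of 10 had one in the window, against 53.0%.

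As a single locus, 67B held several summits over a short stretch. From 5 kb before Hsp67Bc to 5 kb beyond Hsp27 (chr3L:9366511-9390694, 24184 bp, 15 annotated genes) lay 5 IDR summits, of which the 2 at Hsp26 lie in overlapping peaks. Of the 5, 4 lay between the outer ends of Hsp67Bc and Hsp27. The fifth, with a pooled signal of 321 (rank 2467), lay 292 bp inside CG4452, a neighbouring gene. The pooled relaxed list held 15 summits in the locus, and 10 of them were below the IDR list with signals from 49.1 to 147.2. Replicate 1 held 16 and replicate 2 15. Spread evenly over the chromosome arms, the IDR list would place 1.07 summits in this length and each relaxed list 5.42. Summits are not spread evenly, and the difference was not tested. Of the 7 heat shock genes in the locus, 3 had a bound promoter, where 10.9% of all protein-coding genes had one. CG4461, an alpha-crystallin-domain gene within the cluster, had a relaxed summit 154 bp inside it with a pooled signal of 61.7 (32.0 in replicate 1 and none within 100 bp in replicate 2). No pooled summit lay beyond the Hsp27 start site up to the end of the locus, a stretch with the pseudogenes CR43483 and CR43482 and part of CG4080. Klp67A and Fdx1, at the other side, had no pooled summit within 500 bp of a start site.

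**Figure D2:**
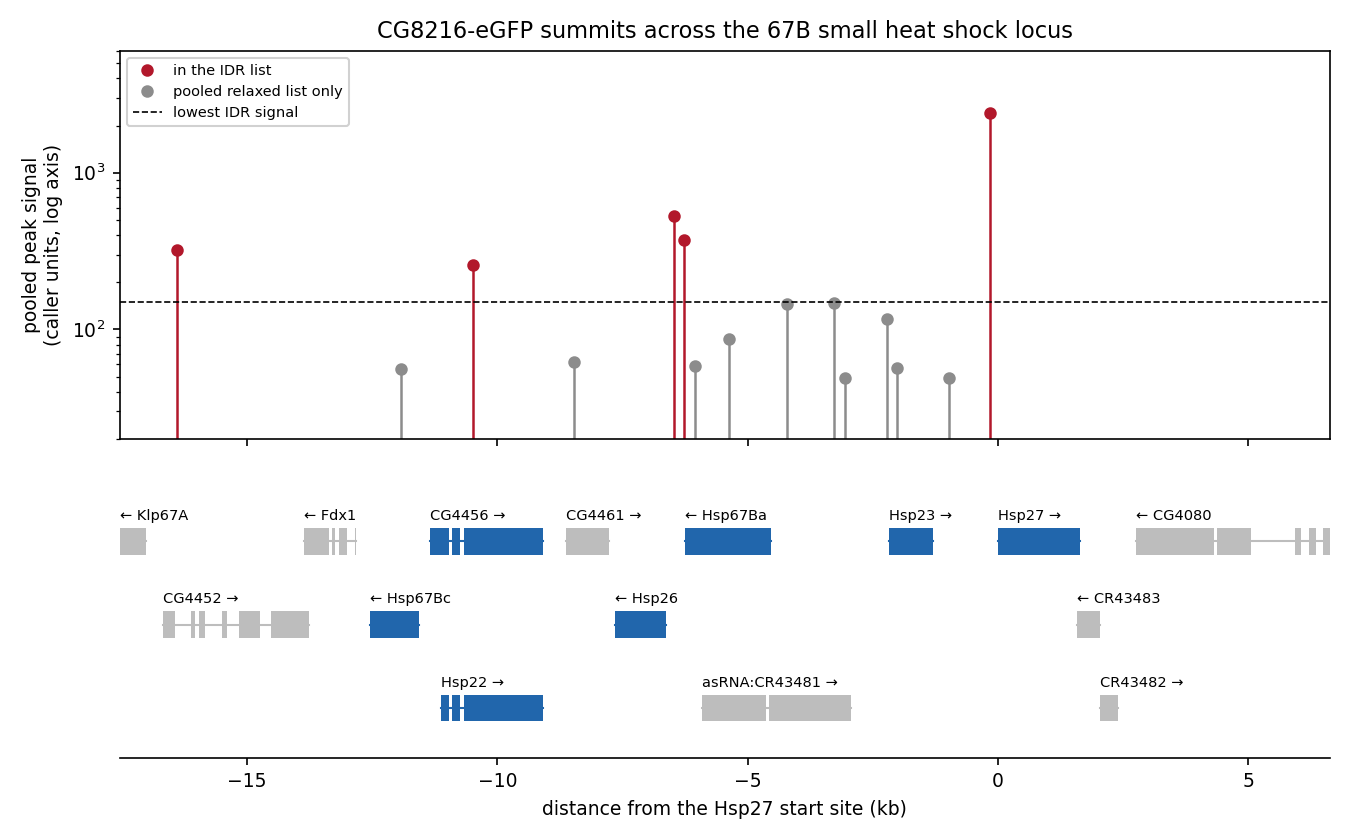
Upper panel: pooled peak signal (caller units, log axis) of every pooled summit across the 67B locus, by distance from the Hsp27 start site in kb, with IDR summits in red, others in grey and the lowest IDR signal as a dashed line. Lower panel: annotated genes with their exons as boxes and arrows for strand, heat shock genes in blue. The Hsp27 summit reaches 2409 and the next strongest, at Hsp26, 529.

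Hsp83 (FBgn0001233, chr3L:3192969-3197059, forward strand) had 2 reproducible summits, the stronger inside its intron. The promoter summit, in the peak chr3L:3192994-3193239, lay 108 bp upstream of the second start site and in the 5′ UTR of the transcript that begins at the first. Its signal was 237 in replicate 1 and 297 in replicate 2 (pooled 528, rank 1260). The intron summit, in chr3L:3194117-3194404, lay 1021 bp downstream of the second start site. It reached 242 in replicate 1 and 444 in replicate 2 (pooled 679, rank 829). The intron site was thus the higher of the pair by little in replicate 1 and by more in replicate 2. No other pooled summit was listed in the gene or in the 5 kb before it.

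stv (FBgn0086708, chr3L:13477541-13483515, forward strand) had 4 reproducible summits in a pair upstream and a pair within an intron. The upstream pair lay 615 and 394 bp before the first start site, in chr3L:13476787-13477040 and chr3L:13476984-13477222. Its stronger summit had 392 in replicate 1 and 516 in replicate 2 (pooled 906, rank 444), second to Hsp27 among the genes examined. The weaker had 314 in replicate 1 and 432 in replicate 2 (pooled 648, rank 892). The intron pair lay 487 and 284 bp upstream of the internal start sites that begin at chr3L:13480444, with pooled signals of 173 (rank 5093) and 162 (rank 5462), close to the end of the IDR list. At the first of these replicate 1 had 52.3, and the closest summit of replicate 2 was 165 bp away. At the second replicate 1 had 49.5 and replicate 2 126. A further intron summit, 1205 bp inside the gene, stayed below the list with a pooled signal of 139 (47.9 in replicate 1 and 82.0 in replicate 2).

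**Figure D3:**
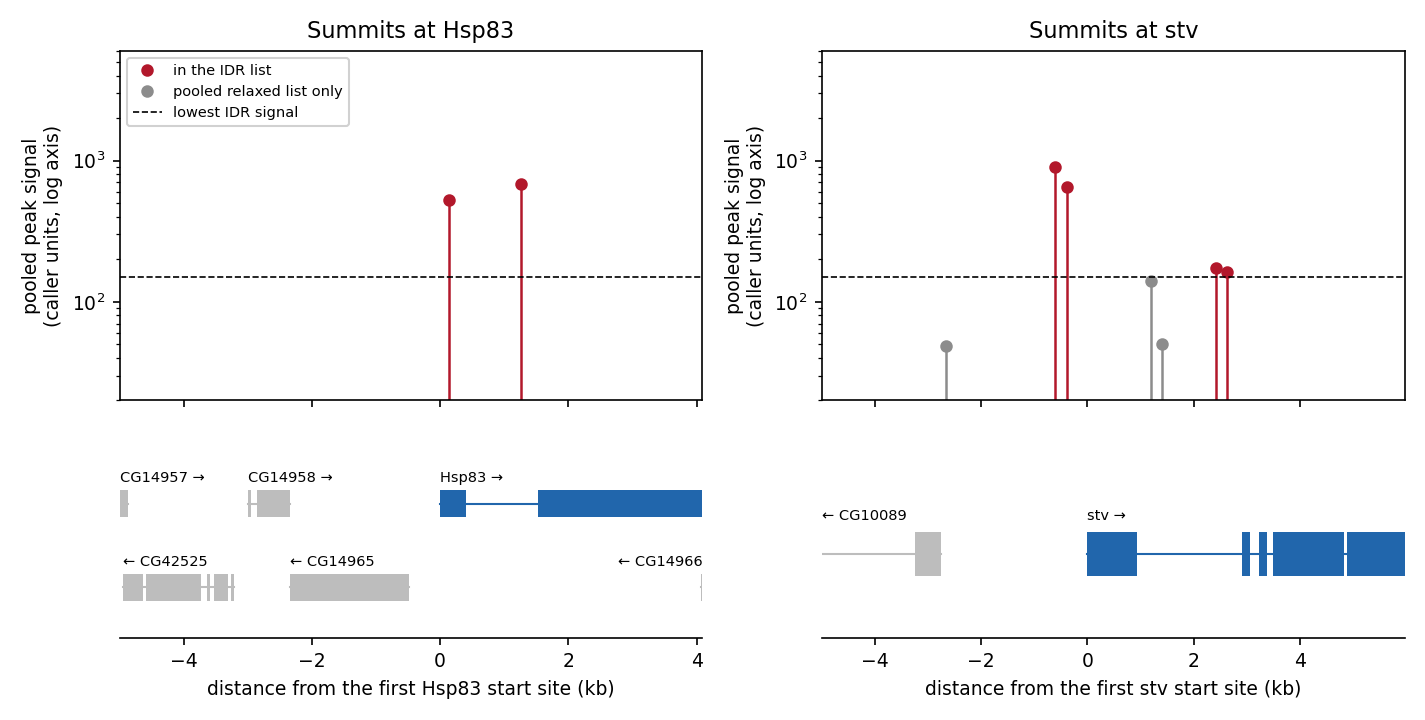
Pooled peak signal (caller units, log axis) of every pooled summit at Hsp83 (left) and stv (right), by distance in kb from the first start site, over gene models with exons as boxes and heat shock genes in blue. Red points are in the IDR list and grey points are not, and the dashed line is the lowest IDR signal. The 2 Hsp83 summits reach 528 and 679, and the 2 upstream stv summits 906 and 648.

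In each replicate Hsp27 had the strongest of these sites and the farther upstream stv summit held the next place. Of the 10 IDR summits, 8 had a summit within 100 bp in both replicates. Replicate 1 was lower in 7 of these 8, with a median log2 ratio of replicate 1 to replicate 2 of −0.43. Over all 5621 IDR peaks matched in both the median was −0.16 with an SD of 0.44, and replicate 1 was lower in 3932. The ratio ran from 0.14 at the farther Hsp26 summit to −1.34 at the last stv summit and −1.46 at Hsp22. These last 2 summits and the Hsp83 intron, at −0.88, lay farther from the list's median than its SD. At Hsp22 the match took a replicate 1 summit of 56.7, while a stronger one of 104 lay outside the 100 bp. The Hsp22 ratio therefore depends on the matching rule. The signals of the replicates are not scaled for read number, and with 2 libraries there was no test between animals.

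**Figure D4:**
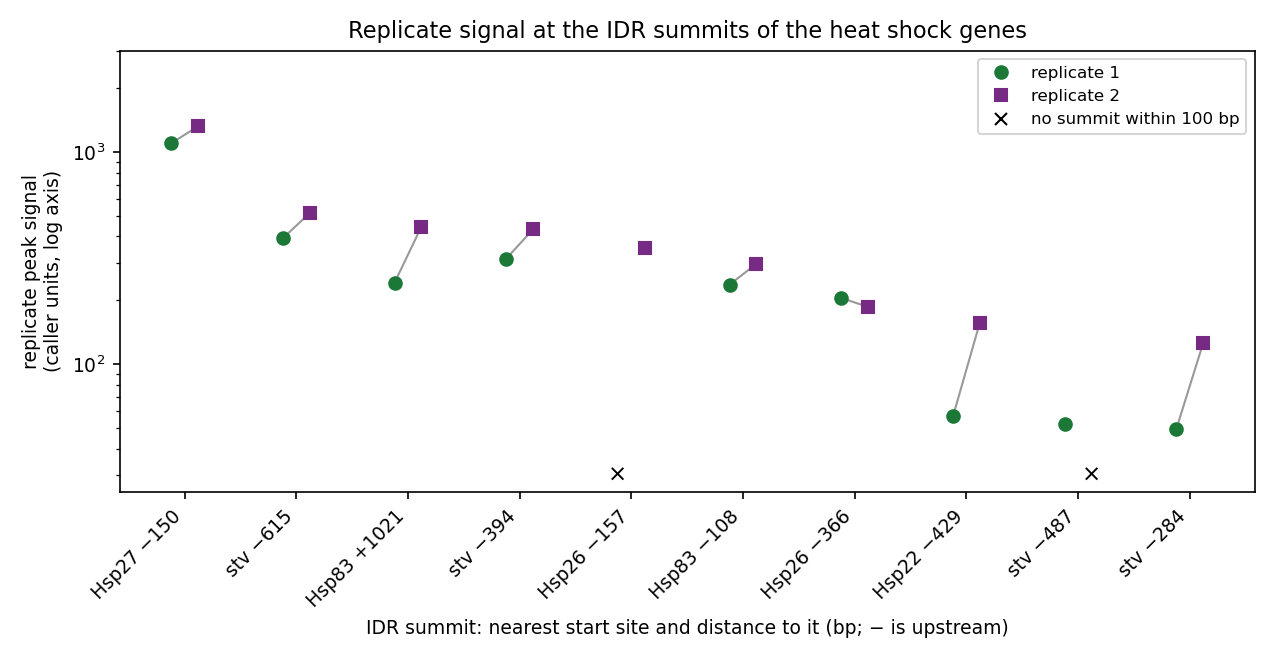
Peak signal (caller units, log axis) in replicate 1 (circles) and replicate 2 (squares) at the 10 IDR summits of the heat shock genes, ordered by pooled signal and named by the nearest start site and distance to it in bp. A cross marks a replicate with no summit within 100 bp. Hsp27 reaches 1098 and 1321, and replicate 1 exceeds replicate 2 only at the farther Hsp26 summit.

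The words under the summits differed from site to site. In the 200 bp around the summit, the heat shock word GAANNTTC occurred at 3 of the 10 summits, both at Hsp26 and the promoter one of Hsp83, where 5.92% of all IDR summits held it. TTCNNGAA occurred at 2, both at Hsp26, against 5.05%. GAGAG occurred at 4, at Hsp22, at both Hsp26 summits and at the stv summit 394 bp upstream, against 25.4%. TATAAA, the TATA-box word, occurred at 4, against 35.0%. Another 3 words had been picked from earlier results on the whole list. CAGTGTA, held by 7.45% of all IDR summits, occurred at none of the 10, nor did CAGTGCA, held by 10.6%. The word CACTGAG, held by 6.71%, occurred at the strongest stv summit, 68 bp from it. The windows of the 2 Hsp26 summits, 209 bp apart, do not overlap, so each holds words of its own. All words were searched on both strands, and a match shows only that the letters are present. Because the list is of heat shock genes, the heat shock words near them are not independent of how it was chosen. A link of these words to binding was not tested.

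The strongest site, at Hsp27, held none of the heat shock words and none of the CAGTG or CACTGAG words in its 200 bp. Its nearest heat shock word began 338 bp before the start site, 185 bp from the summit and inside the peak. That word is shown with 20 bases on either side (chr3L:9383705-9383752, forward strand), in capitals.
Hsp27 heat shock word: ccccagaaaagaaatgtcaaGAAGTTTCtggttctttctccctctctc
At the Hsp83 promoter the heat shock word lay 43 bp from the summit and began 68 bp before the second start site. It is shown with 10 bases on either side (chr3L:3193138-3193165, forward strand), in capitals.
Hsp83 heat shock word: gaagcctctaGAAGTTTCtagagacttc
The Hsp26 sequence printed above holds 3 heat shock words and 9 GAGAG words, with overlapping ones counted, and the nearest heat shock word lay 33 bp from the summit.

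Hsf, the gene of the factor itself, had no summit in any of the lists. Over its gene body and the 5 kb upstream (FBgn0001222, chr2R:18130303-18134634, reverse strand, a window of 9332 bp) the IDR list, the pooled list and both replicate lists were empty. The nearest IDR summit lay 7211 bp upstream of the start site, in an intron of pAbp, with a pooled signal of 525. The pooled list had no summit over 32.1 kb around the gene, the list of replicate 2 none over 31.2 kb and that of replicate 1 none over 79.5 kb. The last gap spans 3 IDR summits, with pooled signals of 525, 344 and 184, at which replicate 2 had 258, 192 and 120 and replicate 1 none. Over the whole list 62 of 5944 IDR peaks (1.04%) had no replicate 1 summit within 1000 bp, and 9 (0.151%) none in replicate 2. The list of replicate 1 therefore gives no measure of binding around Hsf.

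Among 56 other chaperone and heat shock genes, in 7 related lists, 4 had a bound promoter, where 10.9% of all protein-coding genes had one, and 14 had an IDR summit in the gene body or the 5 kb upstream, where 27.3% had one. In the pooled relaxed list 15 of the 56 had a summit at a promoter, where 26.7% of all protein-coding genes had one. These shares are near the background and are no result about the lists. The non-coding heat shock gene lncRNA:Hsromega had the strongest peak of these (chr3R:21296170-21296525, 225 bp inside the transcript), with 333 in replicate 1 and 385 in replicate 2. Hsc70-5, which encodes the mitochondrial Hsp70, had a summit 4 bp inside it (chr2R:14256091-14256267) of 295 in replicate 1, against 282 in replicate 2. Trl, the gene of GAGA factor, had one 128 bp inside it (chr3L:14757065-14757321, 188 and 221 in replicates 1 and 2). At Nelf-E, a subunit of the complex that pauses RNA polymerase, the summit lay 130 bp upstream and only 3 bp from the start site of RpL14, a ribosomal protein gene (chr3L:8600915-8601062, 188 and 173 in replicates 1 and 2).

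The other lists held no bound promoter, where 10.9% of all protein-coding genes had one, and they are too short to read anything from that. Over all protein-coding genes 27.3% had an IDR summit in the window and 26.7% a pooled summit at a promoter. Genes named here for an IDR summit elsewhere in the window were chosen after their values were seen. Among 8 matched Hsp90 relatives and co-chaperones Dpit47 had one, and 1 gene had a pooled summit at a promoter. Among 7 J-domain genes DnaJ-60, mrj and Tpr2 had one, and 4 genes had a pooled promoter summit. Of 12 chaperonins Hsp60B and CCT5 had one, and 1 gene had a pooled promoter summit. In the list of 5 other alpha-crystallin-domain genes l(2)efl, CG4461 and CG14207 had one, and 3 genes had a pooled promoter summit. The 7 genes of the heat-inducible Hsp70 family, Hsp68 included, had no summit in their windows in the IDR list. They had none in the pooled relaxed list either, where 53.0% of all protein-coding genes had one. Several Hsp70 genes are near-identical copies, on which reads cannot be placed uniquely, so the lists may give no measure there. How the authors treated such reads is not given in the sources used here.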

How the data were processed

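The authors' deposited peak lists on dm6 were used: relaxed lists of peaks and background from each of the 2 replicates and from both pooled, and the IDR list derived from these, per the deposited file list. The deposited signal of each peak was computed by the authors' caller from the alignment and 1 control alignment, in units whose scale is not stated, and gives the ranks. The deposited −log10 q value of each peak comes from the authors' caller too and was not used. The summit is the deposited offset added to the peak start. For aligner, caller and IDR threshold, names and versions are not given. The dm3 lists and signal tracks were not used here.

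Summits were placed on Ensembl release 115 gene models (FlyBase 6.54, transposable elements left out) and on the Release 6 genome sequence, in 1-based positions. Windows were the gene body plus 5 kb upstream, promoters 500 bp on either side of any start site, and replicate matches 100 bp. Sequences were cut to leave out annotated exons, except for 1 short run. Of 57 symbols in the related lists 1 was not matched. All 10 genes, the 67B locus and related genes with a bound promoter are named.

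The genes and lists were chosen with earlier results of these data known, so no test was made. The counting code was checked on planted summits. Alternatives were other windows, the upper 2972 IDR peaks, the top 5944 of either replicate alone, interval overlap, chained summits and other matching and motif widths. Tools were SciPy 1.17.1, pandas 2.3.3, matplotlib 3.10.9 and NumPy 2.4.6 under Python 3.11.15.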

Additional observations from a re-analysis of the deposited data

How the results depend on the processing

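The count of 5 bound promoters among the 10 genes was 3 (Hsp26, Hsp27 and Hsp83) with a promoter window of 250 bp and 3, the same genes, when a start site had to lie inside a peak. It was 6 with 1000 bp, where CG4456 was added, and 4 with the 2972 strongest peaks, where Hsp22 was lost. Over all protein-coding genes the share at these settings was 7.64%, 5.72%, 14.0% and 6.67%. From each replicate's own strongest peaks, without the other replicate, the count was 5 to 7, where replicate 1 alone added Hsp67Ba and CG4456, and the share over all protein-coding genes was 11.2% for replicate 1 and 11.9% for replicate 2. The number of genes with a summit in the window was 9 in both cases, where 3809 and 4067 of 13945 protein-coding genes had one. It was 5 when each summit of the IDR list counted for its nearest gene only, a rule by which no share over all genes was counted. From either replicate alone, distinct summits in the windows numbered 9, and in the 67B locus 5 to 6. A window of 10 kb upstream gave Hsf a summit, so that 10 of 10 genes had one, as did 5218 of 13945 protein-coding genes. Words in summit windows changed with the width, and the share over all IDR summits at the same width is in brackets. In 100 bp GAANNTTC was at 2 summits (2.99%), TATAAA at 1 (21.3%), and TTCNNGAA (2.71%), GAGAG (11.4%) and CACTGAG (1.95%) at 0. In 400 bp GAANNTTC was at 5 (10.1%), TTCNNGAA at 4 (8.88%), GAGAG at 6 (48.9%) and TATAAA at 7 (49.4%). Depth is unknown, so a gene with no summit is not shown to be unbound. No paired analysis was possible because there was 1 group and no test.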

Other observations

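The regulatory region of Hsp27 is known for an ecdysone response element, which binds the ecdysone receptor. Its core was searched as TTCANTGCA, on both strands, a word added after the values were seen. In the 1000 bp before a start site the word occurred in 1 of the 10 genes, Hsp27, and in 940 of 13945 protein-coding genes (6.74%). Since the word was taken from the Hsp27 element, its presence at Hsp27 was set by that choice and is no result. It began 545 bp before the Hsp27 start site and lay 391 bp from the summit, outside the peak interval. It is shown with 20 bases on either side (chr3L:9383498-9383546, forward strand), in capitals.
Hsp27 ecdysone core: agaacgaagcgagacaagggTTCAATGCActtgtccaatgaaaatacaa
The Hsp83 intron summit had the same word 94 bp away, where it overlaps a heat shock word. How many of all IDR summits have this word so near was not counted, so nothing can be read from that overlap.

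A run of summits below the IDR list lay from the coding sequence of Hsp67Ba towards Hsp23. In the exons of asRNA:CR43481 the relaxed pooled list had summits of 87.2, 145.4, 147.2 and 49.1. The G and C content of the 200 bp around the 10 heat shock summits had a median of 34.0% (28.5 to 46.0%), against 35.0% over all IDR summits (quartiles 30.5 and 40.0%). The highest value, 46.0%, belonged to the Hsp83 promoter summit and the lowest, 28.5%, to Hsp22.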
